A study of Mus musculus with 8 samples.

Results

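The stress-activated branches of the MAP kinase network were followed through 10 mouse genes: the JNK kinases Mapk8 and Mapk9, the p38 kinases Mapk11, Mapk12, Mapk13 and Mapk14, the p38 activators Map2k3 and Map2k6, and the JNK activators Map2k4 and Map2k7. The genes were taken by symbol, matched to the Ensembl identifiers of the deposited tables, and all 10 of the 10 were found among 45706 genes. RNA-Seq had been performed on freshly isolated small intestinal (SI) and colonic (COL) crypts of 4 wild type C57BL/6N donor mice, 2 female and 2 male, whose ages the labels do not give. The labels name no treatment. An SI and a COL library came from every animal, and they are numbered 1 to 4 here. Crypts had been released by EDTA chelation, and the study's isolation protocol scrapes the villi off the small intestine first. The labels call the mouse of SI4 and COL4 donor mouse 5. The question put to the data was which members of these kinase families SI and COL crypts express, and whether paralogs are used in the same proportions in both tissues.

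In a MAP kinase cascade, a MAP3K phosphorylates a MAP2K, which in turn phosphorylates a MAP kinase on a threonine and a tyrosine of its activation loop. JNK and p38 are the branches that respond to cytokines, microbial products, osmotic stress and DNA damage, and in the gut they are studied for their roles in epithelial renewal, inflammation and tumour growth. MKK4 (Map2k4) and MKK7 (Map2k7) activate JNK, MKK3 (Map2k3) and MKK6 (Map2k6) activate p38, and MKK4 can also act on p38. The families are built from paralogs with overlapping substrates.

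The coding stretch that holds the phosphorylated residues separates the JNK from the p38 kinases by its motif, but not their activators. It is given for all 10 genes, from GENCODE vM21 transcripts with GRCm38 coordinates. Capitals mark the codons of the activating motif. In JNK it encodes threonine, proline and tyrosine, in p38 threonine, glycine and tyrosine, and in the MAP2K genes a run of codons from a serine to a threonine. Each stretch lies within 1 coding exon.
Mapk8 (chr14:33392991-33393023, minus strand, exon 6): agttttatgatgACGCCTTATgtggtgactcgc
Mapk9 (chr11:49872818-49872850, plus strand, exon 6): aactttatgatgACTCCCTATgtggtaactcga
Mapk11 (chr15:89145854-89145886, minus strand, exon 7): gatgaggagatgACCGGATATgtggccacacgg
Mapk12 (chr15:89134664-89134696, minus strand, exon 7): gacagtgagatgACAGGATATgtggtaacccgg
Mapk13 (chr17:28776332-28776364, plus strand, exon 7): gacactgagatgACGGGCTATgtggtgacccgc
Mapk14 (chr17:28728387-28728419, plus strand, exon 7): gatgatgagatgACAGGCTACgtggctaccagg
Map2k3 (chr11:60946715-60946753, plus strand, exon 8): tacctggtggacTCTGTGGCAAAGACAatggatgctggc
Map2k6 (chr11:110496410-110496448, plus strand, exon 8): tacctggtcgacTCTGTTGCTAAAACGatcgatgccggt
Map2k4 (chr11:65707002-65707040, minus strand, exon 7): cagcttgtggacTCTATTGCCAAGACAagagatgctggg
Map2k7 (chr8:4244550-4244588, plus strand, exon 8): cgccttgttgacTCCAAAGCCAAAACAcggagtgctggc
Over their aligned coding sequences, Mapk8 and Mapk9 were identical at 75.1% of bases, Map2k3 and Map2k6 at 72.0%, and Map2k4 and Map2k7 at 60.7%. The p38 genes were 64.8% to 70.1% identical to each other. No stretch of 50 bases in the longest transcript of 9 of the genes occurred in a transcript of another gene. In Map2k7, 37.4% of such stretches also lie in Gm49320, a model that overlaps Map2k7 on the same strand and is not among the genes of the deposited tables.

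The deposited values are read counts per gene. Total counts ranged from 15969428 to 32908060 per library, and the share of mitochondrial transcripts was between 4.83% and 7.35% in SI1, SI4, COL3 and COL4 and between 22.7% and 50.8% in the other libraries. In SI, the libraries with the higher share were those of the male mice. The epithelial markers Epcam, Cdh1 and Vil1 were present in every library. Levels are in CPM, which are counts relative to the TMM-normalized library size. The tissues were compared with the quasi-likelihood test of edgeR over the 14491 genes that passed the filter on low counts. Benjamini-Hochberg adjustment was over all of them, with a threshold of 0.05. This test held no term for the donor mouse, which was a block in alternative fits.

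Both tissues expressed all of these kinase families, and the levels of most members differed between them. Mapk8, Mapk13, Map2k3 and Map2k4 were higher in SI, and Mapk12, Map2k6 and Map2k7 were higher in COL, while the transcripts of Mapk9 and Mapk14 were not called. Of the 9 genes tested, 7 were past the threshold, where 28.4% of all genes tested were. By direction, 4 were higher in SI, where 15.5% of all genes were, and 3 in COL, where 12.9% were. One of them, Mapk12, had at most 9 counts in any SI library and passed the filter through its COL libraries, so that its inclusion depended on the difference itself. Among the genes with at least 10 counts in every library, which leaves Mapk12 out, 6 of 8 members were called, 4 higher in SI and 2 higher in COL, where 30.1% of all genes were. In each of the 7 the SI and COL libraries did not overlap, as for 33.5% of all genes (17.8% higher in SI and 15.7% higher in COL). Without overlap, the direction is the same in all 4 mice by construction. The median log2 fold change was 0.17 for the 9 genes, 0.42 for the 8 with at least 10 counts in every library, and -0.09 over all genes tested. Mapk11, the remaining gene, was under the filter. Crypts are mixtures of cells, so fewer cells of a type and less RNA per cell cannot be told apart in these values.

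**Figure D1:**
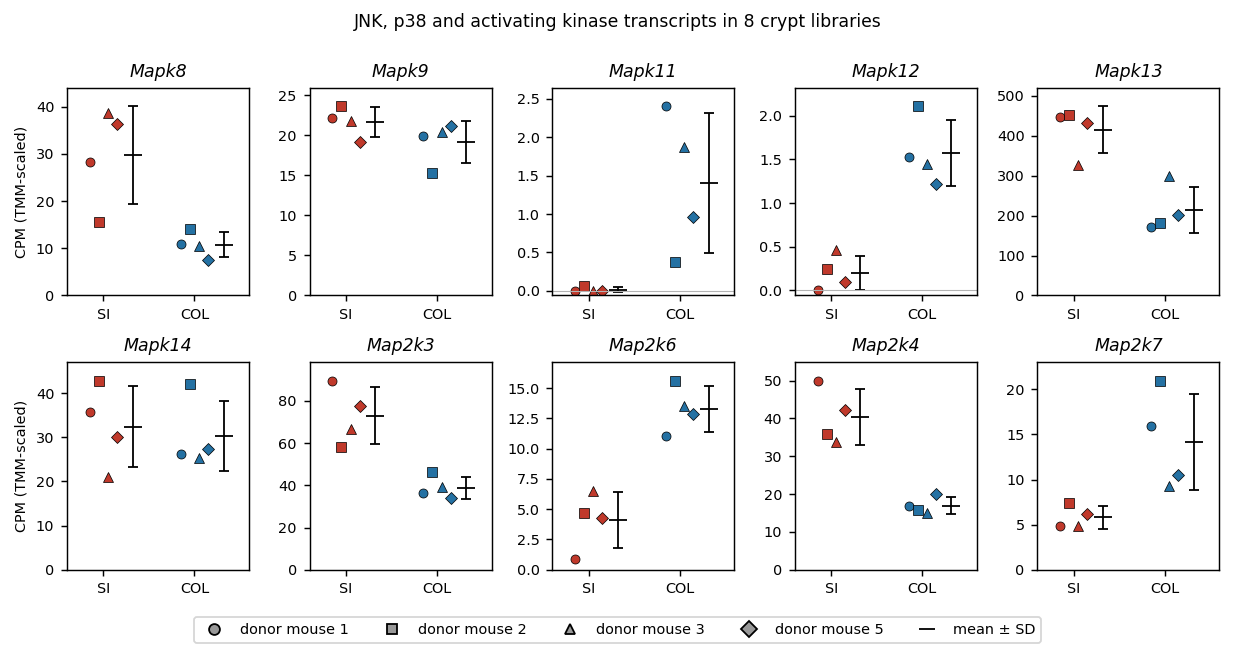
CPM (TMM-scaled, linear axes with a scale of their own) of the 10 genes in 4 SI and 4 COL libraries, with a marker shape for each donor mouse and bars for mean ± SD. SI and COL points are separate for all genes but Mapk9 and Mapk14, and Mapk11 lies at or near 0 in SI.

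Of the JNK genes, Mapk8 differed between the tissues and Mapk9 was not past the threshold. Mapk8 (ENSMUSG00000021936, chromosome 14, 33377898 to 33447158), which encodes JNK1, had 28.3, 15.6, 38.6 and 36.2 CPM in SI1 to SI4 and 11.0, 14.0, 10.4 and 7.54 CPM in COL1 to COL4. All SI libraries were above all COL libraries, but SI2 and COL2, both from mouse 2, lay close together. SI exceeded COL by 1.47 on the log2 scale (standard error 0.33), a 2.77-fold higher level, and the call passed (adjusted p = 0.00635 by edgeR's test).

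Mapk9 (ENSMUSG00000020366, chromosome 11, 49846751 to 49886421) encodes JNK2. It had 22.2, 23.6, 21.8 and 19.2 CPM in SI1 to SI4 and 19.98, 15.3, 20.4 and 21.1 CPM in COL1 to COL4. The ranges overlapped, and its spread was among the smallest of the 10 genes, with a coefficient of variation of 8.52% in SI and 13.8% in COL. Its log2 fold change was 0.17, with a 95% interval from -0.33 to 0.68 (adjusted p = 0.615 by edgeR's test). Mapk10, the JNK gene known from the nervous system, was under the filter with 0 to 7 counts in any library.

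Among the p38 genes, Mapk13 had the highest level per kilobase of exon in both tissues and was higher in SI. Mapk13 (ENSMUSG00000004864, chromosome 17, 28769297 to 28780233), which encodes p38delta, had 447.6, 452.9, 328.0 and 431.2 CPM in SI1 to SI4 and 172.3, 181.7, 299.7 and 202.7 CPM in COL1 to COL4. SI3 and COL3, both from mouse 3, were the closest values. SI exceeded COL by 0.95 on the log2 scale, with a standard error of 0.31 (adjusted p = 0.0411 by edgeR's test). This call was lost with no filter on low counts (adjusted p = 0.206 by edgeR's test), in the fit blocked on donor mouse (adjusted p = 0.0832 by edgeR's test) and when any library other than COL3 was left out, so in 7 of 8 such fits, the exception being the fit without COL3 (adjusted p = 0.0293 by edgeR's test). Over the 8 fits the log2 fold change stayed between 0.87 and 1.17, and the highest adjusted p was 0.106.

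Mapk14 (ENSMUSG00000053436, chromosome 17, 28691329 to 28748406) encodes p38alpha, the broadly expressed form that inflammatory signalling is best known for. It had 35.7, 42.8, 21.0 and 30.0 CPM in SI1 to SI4 and 26.2, 42.0, 25.4 and 27.3 CPM in COL1 to COL4, and the ranges overlapped nearly in full. Both libraries of mouse 2 were the highest of their tissue. Its log2 fold change was 0.10, with a 95% interval from -0.53 to 0.73 (adjusted p = 0.826 by edgeR's test).

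Mapk11 and Mapk12 were scarce and had more counts in COL. Mapk12 (ENSMUSG00000022610, chromosome 15, 89130584 to 89140703), which encodes p38gamma and is best known from skeletal muscle, had 0, 4, 9 and 2 counts in SI1 to SI4 and 52, 34, 54 and 58 counts in COL1 to COL4. The mean level was 0.20 ± 0.20 CPM for SI against 1.57 ± 0.38 CPM for COL (SD, n = 4 mice). Its log2 fold change was -2.98, with a standard error of 0.89 (adjusted p = 0.0254 by edgeR's test), a 7.91-fold higher level in COL. As it passed the filter through COL alone, this test is a description of the counts rather than support for the list. With each library left out, Mapk12 ranged from -3.81 (without SI3) to -2.54 (without SI1) on the log2 scale, and it was -2.41 among the libraries with the higher mitochondrial share and -4.76 among those with the lower share. Without SI4, COL1, COL3 or COL4 the call was lost (adjusted p = 0.076, 0.0654, 0.0513 and 0.0506 in that order, edgeR's test).

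Mapk11 (ENSMUSG00000053137, chromosome 15, 89142486 to 89149628), which encodes p38beta, had 0, 1, 0 and 0 counts in SI1 to SI4 and 82, 6, 70 and 46 counts in COL1 to COL4. COL2 held far fewer counts than the other COL libraries, and still more than any SI library. Over the summed counts, 1 in SI and 204 in COL, the scaled level was 120.9 times higher in COL, with an exact 95% interval from 21.5 to 4798 that covers counting error only. The SI side of this ratio is a single read in SI2, and without SI2 all SI libraries are at 0. On CPM, the exact permutation test gave p = 0.0286 (two-sided), the smallest that 4 libraries against 4 allow. With no filter on low counts, the adjusted p was 2.62e-05 by edgeR's test, the smallest of the 8 fits that tested Mapk11. In the others it was between 0.00114 and 0.0152 (edgeR's test), and in the fits without COL3 or COL4 Mapk11 was under the filter. In these others Mapk11 passed the filter through COL alone, so these tests are a description of the counts. The levels are low in absolute terms, with 1.404 ± 0.91 CPM in COL (SD, n = 4 mice).

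Mapk11 and Mapk12 are neighbours. They lie on the minus strand of chromosome 15 with 1782 bases between them and no annotated gene in the gap. Mapk14 and Mapk13 are likewise neighbours on the plus strand of chromosome 17, 20890 bases apart, but there Mapk13 was called and Mapk14 was not. As the neighbours on chromosome 15 both had more counts in COL, their start regions are shown, as RefSeq gives them on GRCm38.p6, in windows of 300 bases that span the start, with each CG dinucleotide in capitals.
Mapk11 (chr15:89149557-89149856, minus strand): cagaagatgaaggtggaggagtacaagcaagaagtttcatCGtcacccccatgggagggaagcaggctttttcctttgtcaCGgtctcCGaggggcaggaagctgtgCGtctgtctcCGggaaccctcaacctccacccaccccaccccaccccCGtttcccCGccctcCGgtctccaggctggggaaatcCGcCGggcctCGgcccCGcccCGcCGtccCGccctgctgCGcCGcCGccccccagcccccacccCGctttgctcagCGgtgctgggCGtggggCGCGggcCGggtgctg
Mapk12 (chr15:89140654-89140953, minus strand): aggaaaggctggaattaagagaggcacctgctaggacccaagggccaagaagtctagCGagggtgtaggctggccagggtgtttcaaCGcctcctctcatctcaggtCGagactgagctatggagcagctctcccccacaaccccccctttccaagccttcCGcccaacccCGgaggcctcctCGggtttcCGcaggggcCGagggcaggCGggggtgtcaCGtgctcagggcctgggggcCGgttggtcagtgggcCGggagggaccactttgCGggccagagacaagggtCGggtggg
The Mapk11 window held 24 CG dinucleotides and the Mapk12 window 14, against a median of 7 over all windows of this table. TATAAA, searched on both strands, was in neither, and was present in 13.6% of all windows. All 10 genes had at least 1 window. The CG counts of the window at each gene's outermost start ran from 14 in Mapk12 and Map2k6 to 45 in Mapk8, so a CG content above the median was common to genes that rose in SI, genes that rose in COL and genes that were not called.

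The p38 activators moved in opposite directions. Map2k3 (ENSMUSG00000018932, chromosome 11, 60932033 to 60952811), which encodes MKK3, had 89.6, 58.2, 66.9 and 77.6 CPM in SI1 to SI4 and 36.4, 46.1, 39.2 and 33.8 CPM in COL1 to COL4. Every SI library was above the COL libraries, by 0.91 on the log2 scale with a standard error of 0.24 (adjusted p = 0.0154 by edgeR's test), a 1.88-fold higher level. The call was lost without SI4 (adjusted p = 0.0653, edgeR) and with no filter on low counts (adjusted p = 0.106, edgeR).

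Map2k6 (ENSMUSG00000020623, chromosome 11, 110399122 to 110525522), which encodes MKK6, had 0.91, 4.71, 6.54 and 4.26 CPM in SI1 to SI4 and 11.0, 15.6, 13.5 and 12.8 CPM in COL1 to COL4. SI1 stood lowest, with 20 counts against 78 to 129 in the other SI libraries. All COL libraries were above SI, with a log2 fold change of -1.69 and a standard error of 0.49 (adjusted p = 0.0223 by edgeR's test), a 3.23-fold higher level in COL. Without SI1 it was -1.34, and it remained past the threshold with each library left out.

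The JNK activators also moved apart. Map2k4 (ENSMUSG00000033352, chromosome 11, 65688243 to 65788297) encodes MKK4. It had 49.96, 35.8, 33.7 and 42.3 CPM in SI1 to SI4 and 16.8, 15.8, 15.03 and 20.1 CPM in COL1 to COL4. Of the 9 genes tested it had the smallest adjusted p (0.00242 by edgeR's test), at 1.25 on the log2 scale (SI over COL, standard error 0.24) and a range from 1.15 to 1.36 with each library left out.

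Map2k7 (ENSMUSG00000002948, chromosome 8, 4238740 to 4247897), which encodes MKK7, had 4.85, 7.43, 4.82 and 6.13 CPM in SI1 to SI4 and 15.9, 20.9, 9.28 and 10.53 CPM in COL1 to COL4. COL1 and COL2, which have the higher mitochondrial shares, were above COL3 and COL4, and all 4 were above SI. Its log2 fold change was -1.28, with a standard error of 0.34 (adjusted p = 0.0154 by edgeR's test), a 2.44-fold higher level in COL, and the call was kept with each library left out.

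**Figure D2:**
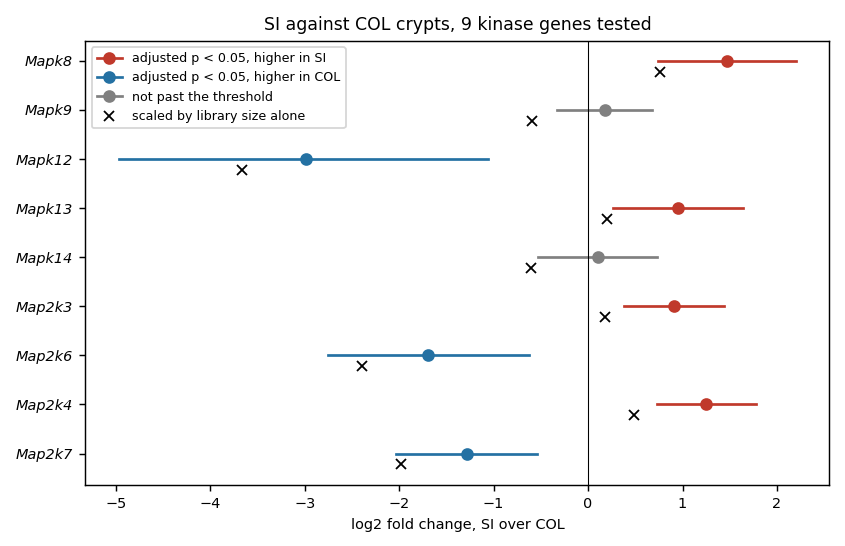
Log2 fold changes of SI over COL for the 9 genes tested, with 95% intervals from edgeR's fit under TMM normalization (dots and bars) and the values after scaling by library size alone (crosses). The crosses lie to the left of the dots for every gene, and Map2k6, Map2k7 and Mapk12 stay left of 0 under both scalings.

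The sizes of these fold changes, and the calls in SI, depend on the scaling between tissues. TMM factors were 0.73 to 0.80 in SI and 1.01 to 1.45 in COL libraries. With scaling by library size alone, the median gene moved from -0.09 to -0.82, and the split of called members changed from 4 higher in SI and 3 higher in COL to 0 and 3, where 40.7% of all genes were called. Mapk8 then had a log2 fold change of 0.76, Map2k4 of 0.49, Mapk13 of 0.20 and Map2k3 of 0.18, none of them past the threshold, and Mapk9 and Mapk14 turned negative. Set against the median gene of that scaling, the values were 1.58 for Mapk8, 1.31 for Map2k4, 1.02 for Mapk13 and 1.00 for Map2k3, and -1.57 for Map2k6 and -1.16 for Map2k7.

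Ratios of 2 genes within a library do not depend on this scaling, and 7 of them were compared. With 0.5 added to each count, the ratio of Map2k3 to Map2k6 was 96.5, 12.3, 10.2 and 18.1 in SI1 to SI4 and 3.30, 2.95, 2.89 and 2.64 in COL1 to COL4. That of Map2k4 to Map2k7 was 10.3, 4.80, 6.96 and 6.87 in SI and 1.05, 0.76, 1.62 and 1.91 in COL. In both MAP2K pairs the SI libraries lay above all COL libraries. The genes of each pair were each without overlap, in opposite directions, so this outcome was fixed by the results for each gene. The same holds for the permutation p of these pairs, which adds no separate support. The mean log2 ratio was higher in SI by 2.88 for Map2k3 to Map2k6 and by 2.47 for Map2k4 to Map2k7, and over fits without each library it ranged from 2.16 to 3.24 and from 2.23 to 2.68.

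The ratios of Mapk11 and of Mapk12 to Mapk14 were lower in every SI library than in any COL library. For these and the MAP2K pairs the exact permutation test gave p = 0.0286 (two-sided), the smallest possible. Adjusted over the exact permutation tests of the 7 ratios, p was 0.05, which is at the threshold and not below it. In SI, Mapk11 had at most 1 count and Mapk12 at most 9. Where a count was 0, the offset of 0.5 and Mapk14 alone set the ratio. The tests of the Mapk11 and Mapk12 ratios therefore describe the counts, although both entered the adjustment. Mapk13 to Mapk14 was higher in SI in all 4 mice, by 0.89 on the log2 scale, but the tissues overlapped (exact permutation test, p = 0.0571, adjusted 0.0667). Mapk8 to Mapk9 was higher in SI by 1.23 on average, in 3 of 4 mice. In mouse 2 the log2 ratio of Mapk8 to Mapk9 was lower in SI than in COL by 0.47, and the exact permutation test gave p = 0.0571 (adjusted 0.0667). The ratio of Mapk8 to Mapk14 was higher in SI by 1.33 on average and in all 4 mice, with overlapping tissues (exact permutation test, p = 0.0857, adjusted 0.0857).

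**Figure D3:**
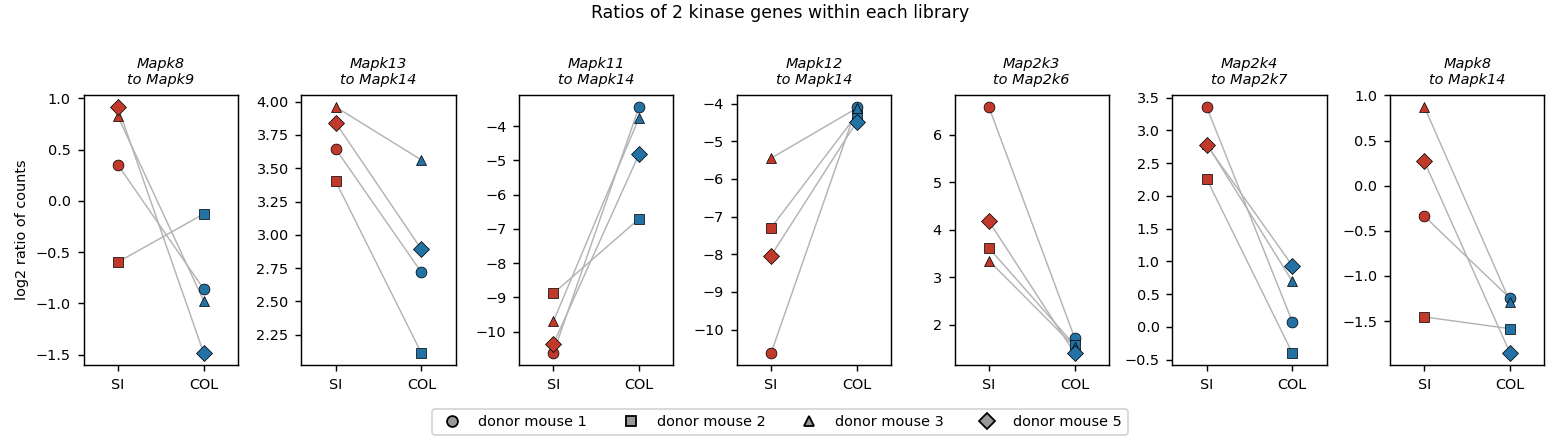
Log2 ratios of counts of 2 genes in each library (offset of 0.5 counts), SI on the left and COL on the right of each panel, with lines joining the libraries of a donor mouse and an axis for each panel that does not start at 0. Both MAP2K ratios fall from SI to COL in all 4 mice, and Mapk8 to Mapk9 does so in 3 of 4.

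Levels of different genes were compared per kilobase of annotated exon. On this scale Mapk13 led in both tissues, at 131.7 ± 18.6 in SI and 68.0 ± 18.6 CPM per kilobase in COL (SD, n = 4 mice), followed by Map2k3 at 22.1 ± 4.10 and 11.7 ± 1.597. In SI the order went on with Map2k4 and Mapk14, whose ranges overlapped, then Mapk9, Mapk8, Map2k7 and Map2k6, each overlapping its neighbour, and Mapk12 and Mapk11 last, also with overlap. In COL Mapk14 came next, then Map2k6, Map2k7 and Map2k4, each overlapping its neighbour, then Mapk9, and then Mapk8, Mapk11 and Mapk12, again each overlapping its neighbour. Map2k6 thus ranked 8 of 10 in SI and 4 of 10 in COL, and Map2k4 ranked 3 and 6.

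As a share of its family, Mapk13 made up 94.7% ± 0.845 of the p38 level per kilobase in SI and 89.2% ± 3.54 in COL (SD, n = 4 mice), and Mapk14 most of the rest. MKK4 transcripts (Map2k4) were 84.8% ± 3.94 of the JNK activators in SI, against 50.7% ± 10.3 in COL, where Map2k7 was nearly as abundant. MKK3 transcripts (Map2k3) were 94.5% ± 3.34 of the p38 activators in SI and 75.3% ± 1.71 in COL. Mapk8 was 43.8% ± 11.3 of the JNK level in SI and 25.1% ± 7.38 in COL, with overlapping ranges of 28.1% to 52.8% and 17.5% to 35.2%. The shares depend on the length given to a gene: with the longest transcript in place of all annotated exons, Mapk8 was 51.4% of JNK in SI and 31.3% in COL.

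**Figure D4:**
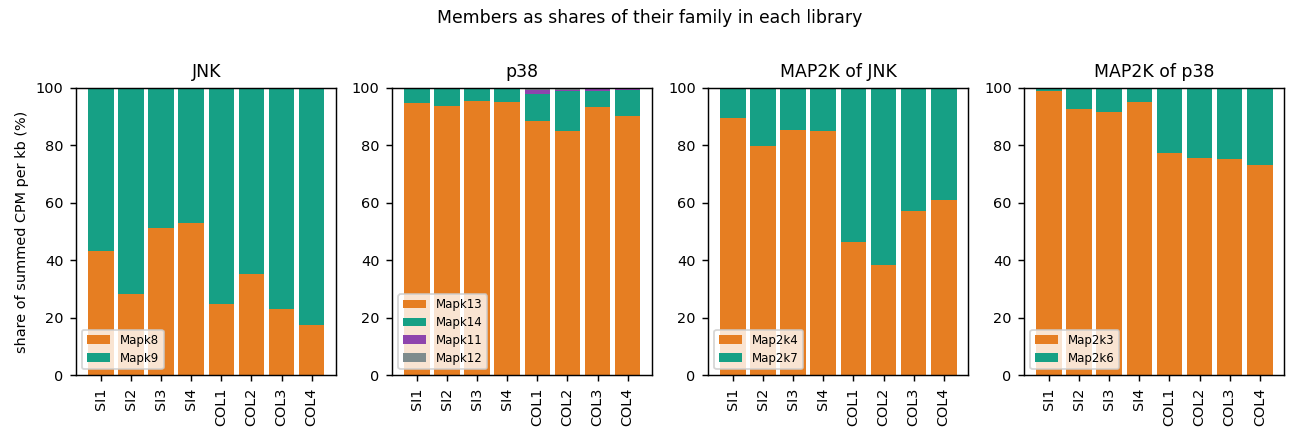
Shares (percent of the summed CPM per kilobase of exon) of the JNK genes, the p38 genes, the JNK activators and the p38 activators in each of the 8 libraries. Map2k4 takes 79.8% to 89.4% of its pair in SI and 38.3% to 61.1% in COL, and Mapk13 at least 84.9% of p38 in every library.

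The size of these differences varied with the mitochondrial share of the libraries, and the direction of this change differed between genes. In SI the higher-share libraries were also those of the male mice. In the fit with the higher-share libraries alone (SI2, SI3, COL1 and COL2), 1 of 9 genes was called, Map2k7, where 14.8% of all genes were. In the fit with the lower-share libraries alone, 5 of 10 were called, where 37.0% of all genes were. These were Mapk8, Mapk11, Mapk12, Map2k3 and Map2k4. Mapk11 (0 and 0 counts in SI1 and SI4) and Mapk12 (0 and 2 counts) passed the filter through COL3 and COL4 alone. Their inclusion depended on the difference itself. The 7 genes called over all libraries kept their direction in both subsets, an outcome that the lack of overlap between their SI and COL libraries largely fixes. Mapk8 had a log2 fold change of 1.06 among the higher-share and 1.84 among the lower-share libraries. In the same order, Map2k3 had 0.54 and 1.19, Map2k4 1.02 and 1.38, Map2k6 -1.30 and -2.35, and Mapk12 -2.41 and -4.76. Mapk13, with 1.07 and 0.8, and Map2k7, with -1.66 and -0.86, went the other way. With the mitochondrial share as a covariate the count of genes called was again 7 of 9, where 38.1% of all genes were called. The part of RNA quality in these differences was not tested.

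The count of members called was 7 of 9 with DESeq2, limma-voom and limma-voom with the donor block, where 35.3%, 32.4% and 32.5% of all genes were called. It was 6 of 9 in edgeR with the donor block (28.1% of all genes), 6 of 10 with no filter (13.7%), 6 of 8 with at least 10 counts in every library (30.1%) and 0 of 9 when tested against a log2 change of 1 (14.3%). Without SI1, SI2 or SI3 it was 7 of 10 (22.3%, 29.0% and 24.0% of all genes), and without SI4 it was 5 of 10 (20.7%). Without COL1, COL2, COL3 and COL4 it was 6 of 10, 7 of 10, 6 of 9 and 5 of 9 (21.2%, 29.6%, 24.2% and 24.0%). Wherever 10 genes were tested, the added gene was Mapk11, with at most 1 count in any SI library. It was called in each of these fits, and Mapk13 was not. Where a filter was used, Mapk11 passed it through COL alone, so these counts depend in part on the difference itself. No member was past the threshold for a tissue by sex interaction (0 of 9 by edgeR's test, 0 at an unadjusted p under 0.05, and 0 of 14491 genes after adjustment, or 0.00%, with 761 at an unadjusted p under 0.05). This comparison rests on 2 mice of each sex.

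Of 48 further genes of the JNK and p38 cascades, 43 passed the filter and 13 were called, 10 higher in SI and 3 higher in COL. This share of 30.2% is close to the 28.4% of all genes, and the median log2 fold change was 0.09. Among the MAP3K genes, which act above the MAP2K genes, 4 of 16 were called. Map3k2, Map3k13 and Map3k1, which encode MEKK2, LZK and MEKK1, rose in SI by log2 values of 1.43, 1.599 and 1.02 (adjusted p = 0.0028, 0.00605 and 0.0167 by edgeR's test). The Map3k1 call was lost without SI4, without COL1 and with no filter on low counts (adjusted p = 0.0621, 0.0521 and 0.0513, edgeR). Map3k5, which encodes the oxidant-sensitive kinase ASK1, was the one called in COL, at -1.14 on the log2 scale (adjusted p = 0.0133 by edgeR's test), a call lost without SI4 (adjusted p = 0.0567, edgeR). Of the MAP3K partners, 2 of 8 were called. These were Tab3, an adaptor of TAK1, with a log2 fold change of 1.39, and Gadd45g, a stress-induced activator of MEKK4, with 1.88. Gadd45g ranged from 9.73 to 54.8 CPM in SI and overlapped COL, and its call was lost without SI4 (1.35, adjusted p = 0.0632, edgeR).

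Of the kinases downstream of p38, 5 of 6 tested genes were called, 3 higher in SI and 2 higher in COL, where over all genes 28.4% were called, 15.5% higher in SI and 12.9% higher in COL. Rps6ka5, which encodes the nuclear kinase MSK1, had 7.07, 7.73, 15.2 and 7.37 CPM in SI1 to SI4 and 1.41, 0.50, 0.64 and 0.71 CPM in COL1 to COL4. Its log2 fold change was 3.50, with a standard error of 0.48 (adjusted p = 0.000263 by edgeR's test), and Rps6ka4, which encodes MSK2, was higher in SI by 1.12 (adjusted p = 0.00857). The MNK genes, whose products phosphorylate the translation factor eIF4E and are also ERK targets, moved apart: Mknk1 was higher in SI, with a log2 fold change of 1.13, and Mknk2 higher in COL, with -1.82 (adjusted p = 0.0119 and 0.000719 by edgeR's test). Mknk2 had 24.6 to 41.2 CPM in SI and 73.2 to 128.6 CPM in COL. Mapkapk3, which encodes MK3, was higher in COL by edgeR's test (log2 fold change -0.79, adjusted p = 0.0472), a call lost with the donor mouse as a block (adjusted p = 0.0803) and in 7 of 8 fits that left out 1 library. Mapkapk2 was not called.

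Of the 7 substrate transcription factors tested, Atf2 alone was called, higher in SI by 0.91 on the log2 scale (adjusted p = 0.0167 by edgeR's test), and its call was lost without SI4 and with no filter on low counts (adjusted p = 0.0772 and 0.103, edgeR). Jun and Jund had -0.62 and -1.04 and were not past the threshold. Of the 4 phosphatases of JNK and p38, Dusp16 was higher in SI (1.45), and Dusp1, Dusp8 and Dusp10 were not past the threshold. Neither scaffold gene tested was called. With scaling by library size alone, the split of the 43 genes changed from 10 higher in SI and 3 higher in COL to 3 and 14. Over all genes, 40.7% were called under that scaling, and the share of calls that were higher in SI went from 54.7% to 18.9%. Map3k2, Map3k13 and Rps6ka5 were the ones still called higher in SI.

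**Figure D5:**
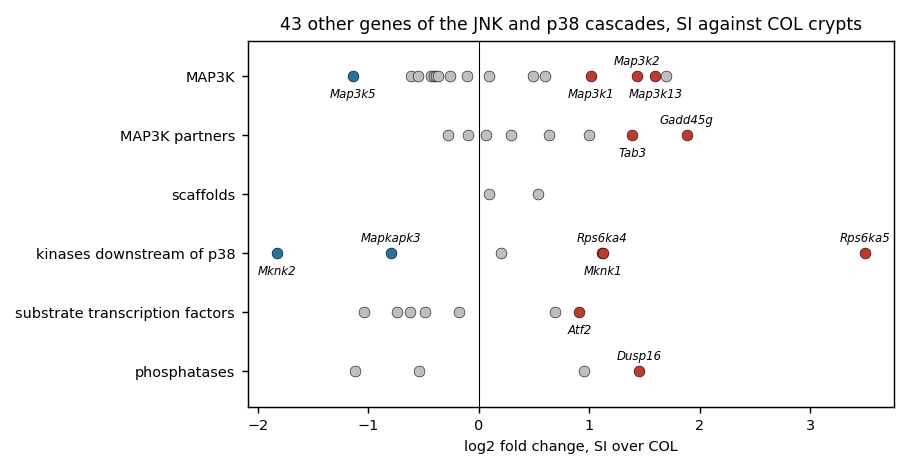
Log2 fold changes of SI over COL (TMM) for the 43 other cascade genes tested, by tier, with genes past the threshold named and coloured red (higher in SI) or blue (higher in COL) and the rest in grey. Called genes lie on both sides in the MAP3K tier and among the kinases downstream of p38.

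Markers of other cell types differed between the tissues as well. The 6 enterocyte genes summed to 11770 to 36344 CPM in SI and 511.1 to 2276 CPM in COL, with 4 called higher in SI and Car4 higher in COL. The 7 epithelial genes summed to 12055 to 24877 CPM in SI and 4134 to 10444 CPM in COL, with Vil1, Krt20 and Cldn7 called higher in SI and Krt18 higher in COL. Of 6 stem and proliferating cell genes, Olfm4 alone was called, higher in SI by 7.24 on the log2 scale. The others were not called and went the other way, at -0.92 for Lgr5, -0.13 for Smoc2, -1.43 for Ascl2, -0.63 for Mki67 and -0.35 for Top2a. Their summed levels with Olfm4 overlapped, at 43.3 to 553.2 CPM in SI and 198.4 to 459.4 CPM in COL. Summed over 6 goblet cell genes, the level was 2676 to 10861 CPM in SI and 12227 to 22437 CPM in COL, with Muc2 and Agr2 called higher in COL. The other 4 goblet genes were not called and were split, at 0.86 for Tff3, 0.66 for Fcgbp, 0.88 for Zg16 and -0.79 for Clca1 on the log2 scale. For 6 Paneth cell genes it was 564.4 to 3965 CPM in SI and 17.9 to 83.0 CPM in COL, with 5 called higher in SI, and for 6 immune cell genes 38.5 to 85.5 CPM and 10.8 to 32.3 CPM, with 3 called higher in SI. The 6 endothelial genes summed to 0.14 to 4.71 CPM in SI and 3.37 to 11.3 CPM in COL. Pecam1 was called higher in COL, and Vwf (-2.73) and Tek (2.81) were not called. Fibroblast, smooth muscle and enteric neuron and glia lists each stayed under 14 CPM in every library. None of the 4 fibroblast and 3 smooth muscle genes tested was called, and no neuron or glia gene passed the filter. The part of these cell types in the kinase differences was not tested.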

How the data were processed

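Deposited counts of 4 SI and 4 COL libraries were used. For these the authors used Trimmomatic (0.36) for trimming and STAR (2.5.2b) for alignment (mm10) and gene-level counting of paired-end reads. The versions are from the submitters' processing notes, which list mm9 beside mm10; the study's methods give mm10. The deposited counts are whole numbers with no normalization. The annotation release and the use of strand are not given in the sources used here. Symbols, coordinates and exon lengths came from GENCODE vM21 (GRCm38), which holds 45143 of the 45706 genes.

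Tests were run in R 4.3.3 with edgeR 4.0.16 (glmQLFit, glmQLFTest, TMM, filterByExpr, Benjamini-Hochberg adjustment over 14491 genes). Limma 3.58.1 (voom; the study's methods name limma) and DESeq2 1.42.0 were alternatives, with fits without TMM, with other filters, without each library, and with donor mouse blocks. An SI and a COL library came from the same mouse, but the main edgeR test and the exact permutation tests did not use this pairing. The fits with a donor block and the sign-flip test did. The correlation of the SI and COL deviations from tissue means was -0.24, 0.39, -0.08 and 0.33 in mice 1, 2, 3 and 5. Libraries of a tissue differed by more than sampling noise (chi-square per gene at least 86.5). Exact permutation tests used all 70 assignments. The fits were tested on simulated counts in which a small set of genes changed, equally often up and down. The simulated counts held no donor effect and no wider shift between tissues, so they do not test the scaling between tissues. All 10 members, and of the further cascade genes at most the 3 of smallest adjusted p per tier and direction plus Mapk10, were to be named; Jun, Jund, Mapkapk2, Dusp1, Dusp8 and Dusp10 were added after their values were seen. Members and lists were chosen with earlier results of these data known. The part of counting error in the spread between mice was not tested gene by gene. Counts were few for Mapk11, Mapk12 and Mapk10, and in some libraries for other genes, as for Rps6ka5 in COL (8 to 48 counts). No fold change or test of the authors was used.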

Additional observations from a re-analysis of the deposited data

Results flagged for a closer look

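In 34 groups of 4 libraries, 1 for each tissue and gene or ratio with any count, the gap between the most extreme library and its neighbour was compared with the whole range, and 2 groups exceeded Dixon's 95% critical value for 4 samples. Chance alone flags about 1 group in 20. Mapk14 in COL was flagged for COL2, at 42.0 CPM against 25.4 to 27.3 CPM in the other COL libraries, with a gap of 0.883 of the range. Mapk11 in SI was flagged for SI2, with a gap of 1.0 of the range, because SI2 held 1 count and the other SI libraries held 0.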

How the results depend on the processing

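DESeq2, limma-voom, limma-voom with the donor block and the mitochondrial covariate each gave 7 of 9 members called, as the edgeR test did. With the donor mouse as a replicate block, edgeR called 6 of 9 members, with Mapk13 lost. It called 12 of 43 cascade genes in place of 13, with Mapkapk3 lost, where 28.1% of all genes were called. Of the ratios, 0 of 7 passed after adjustment with the sign-flip test by donor mouse, whose smallest p is 0.125, and 0 with an offset of 5 counts, as with 0.5, although 4 had an unadjusted exact p below 0.05. These 4 were the MAP2K pairs, whose outcome the results for each gene had fixed, and the ratios of Mapk11 and Mapk12 to Mapk14, with few SI counts. Scaling by library size alone left 3 members. When tested against a log2 change of 1, 0 of 9 members by edgeR's glmTreat (3 at an unadjusted p under 0.05) and 2 of 43 cascade genes were called, where 14.3% of all genes were. The higher-share libraries alone gave 1 of 9 members and 6 of 47 cascade genes, where 14.8% of all genes were called. The lower-share libraries alone gave 20 of 43 cascade genes, where 37.0% of all genes were called. Leaving out each library in turn gave 5 to 7 members, counting Mapk11 where it passed the filter, and 8 to 15 cascade genes. Over these fits 20.7% to 29.6% of all genes were called. The fit without SI4 gave 8 of 44 cascade genes, where 20.7% of all genes were called. The cause of these changes was not tested. The uncalled genes changed sign in places: Mapk9 to -0.60 with library size alone and -0.015 with the lower-share libraries, and Mapk14 to -0.61 with library size alone, -0.023 with at least 10 counts in every library, -0.17 with the higher-share libraries and, over the fits without each library, between -0.0395 (without SI2) and 0.307 (without COL2). The length of the longest transcript was added after seeing the data. A sex interaction was called for 0 of 9 members under either scaling. Depth limits Mapk11 and Mapk12, with at most 9 counts in any SI library.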
